A study of Mus musculus with 12 samples.

Results

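The genes described here are 45 genes of the cell cycle and mitosis, measured in whole mouse cecum after injury of its surface. They were chosen by name from the gene names printed on the array, with no rule on their values, out of 37074 gene names in all. Earlier results of these data were known when they were chosen. Where several probes named a gene, the brightest on average stood for it. The 45 members were split by phase into 21 genes of the G1 to S transition and S phase (7 regulators and 14 replication genes) and 24 genes of G2 and mitosis (13 control genes and 11 chromosome and spindle genes).

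The cecum of C57BL/6 mice, labelled male, was cauterized for a moment with bipolar forceps in a laparotomy, a model of postoperative adhesion. Ceca were taken at 3, 12 or 72 h following cauterization, or following a sham operation, which the study's methods place at 0 h. Neither labels nor methods name a transgene or a further treatment for these samples. Each of the 4 groups held 3 arrays, described by the study as biological triplicates. There was no sham group at 3, 12 or 72 h, so the time after surgery, the hour of the day and cauterization cannot be told apart in a comparison with sham. The RNA came from a piece of bulk tissue, in which fewer dividing cells and less of these transcripts per cell cannot be told apart.

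The cell cycle runs in an ordered series of transcription waves. Late in G1, cyclin D and cyclin E kinases inactivate the RB proteins, E2F factors are released, and genes that license origins, make nucleotides and copy DNA are switched on. In G2 a later wave, driven by the MuvB complex with B-MYB and FOXM1, switches on cyclin B, the mitotic kinases, kinetochore proteins and spindle motors. In the large intestine most such transcripts come from dividing cells in the lower part of the crypts, with a share from lymphoid follicles, which are large in the cecum.

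Levels are given as log2 of the background-corrected intensity minus the 75th percentile of the same array, so that a level of 0 equals that percentile. The percentile itself was 194 to 214 intensity units on the sham arrays, 180 to 190 at 3 h, 215 to 220 at 12 h and 243 to 261 at 72 h. Of the 45 members, 44 were well above background on all 12 arrays, and Ccne2 (cyclin E2) was so on 0 of 12. No spot was saturated. The sham and 3 h arrays and 12 h replicates 1 and 2 lay on slide 1, and 12 h replicate 3 and the 72 h arrays on slide 2. Xist, made by the inactive X chromosome, was well above background on 12 of 12 arrays, and the Y-linked Ddx3y and Eif2s3y on 0 of 12, which goes against the label of male animals in every group alike. The median log2 difference of all 37074 genes from sham took the values 0.08 at 3 h, -0.01 at 12 h and -0.14 at 72 h (-0.12 from 3 h to 12 h and -0.14 from 12 h to 72 h), and the members' differences are read against these.

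The sham arrays stood apart from each other in these genes, and this sets the precision of every comparison with sham. Of the 45 members, 44 were lowest on sham replicate 1 and 44 were highest on sham replicate 3. Sham replicate 3 exceeded replicate 1 by a median of 1.17 on the log2 scale over the members, 1.29 for the G1/S and 1.08 for the G2/M members, against a median of -0.00 over the 20792 genes above background on all arrays. The median SD of a member's level over the 3 sham arrays was 0.58, against 0.16 over those 20792 genes, and 42 of the 45 members had an SD above the 90th percentile of those genes, 0.37.

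The 3 h group repeated this picture with 1 array. Replicate 1 was the highest for 44 of the 45 members, by a median of 0.77 over the mean of replicates 2 and 3, and the median SD was 0.47. At 12 h and 72 h the median SD of the members was 0.20 and 0.16, close to the 0.15 and 0.16 of the genes above background. The 12 h group split by phase, with a median SD of 0.10 over the G1/S members and 0.26 over the G2/M members, of which all 24 were highest on replicate 2. The spread shared by the members was thus wide in the sham and 3 h groups and narrow in the later groups.

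**Figure D1:**
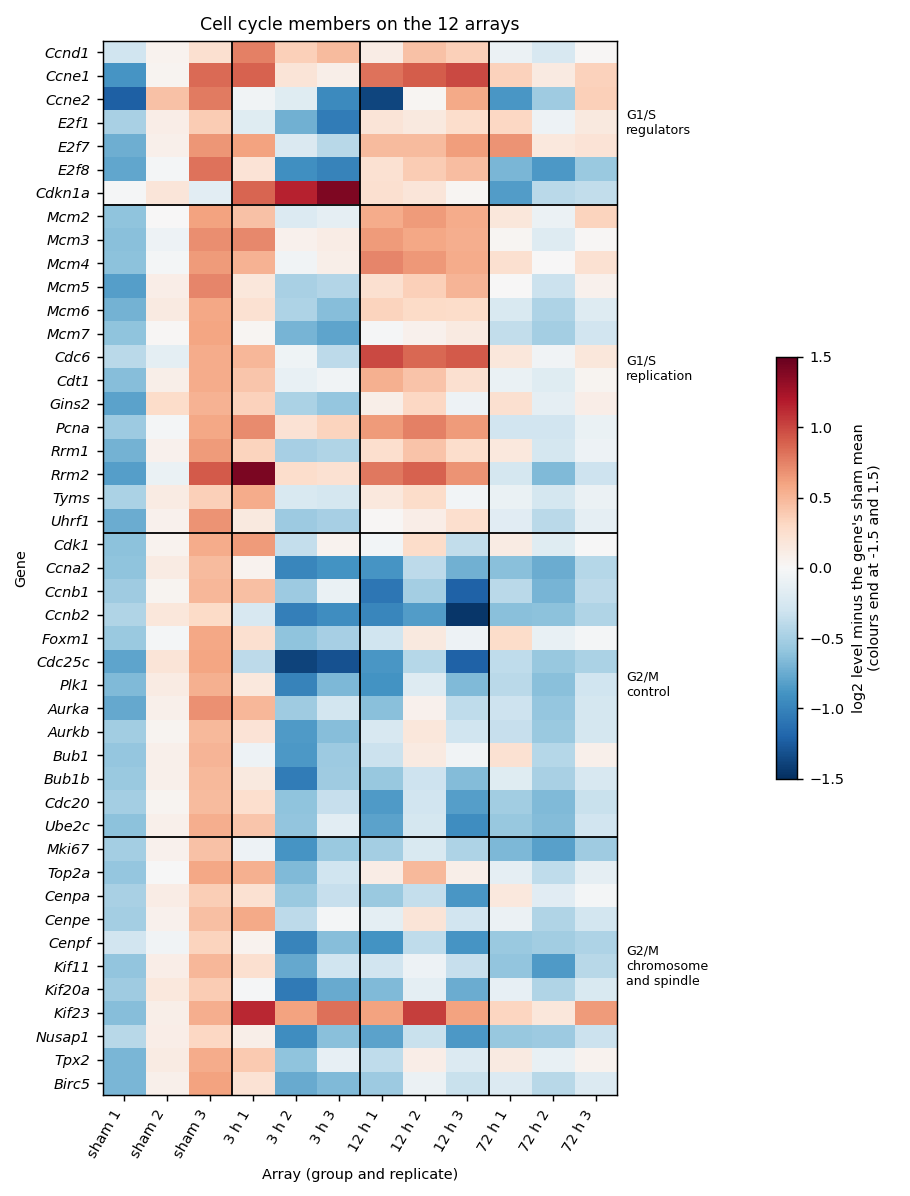
Log2 level of each of the 45 members (rows, by role) on each of the 12 arrays (columns), minus the gene's mean over the 3 sham arrays; red is higher and blue lower. Sham replicate 1 is blue and sham replicate 3 red in 44 of 45 rows, and at 12 h the upper, G1/S block is mostly red while the lower, G2/M block is mostly blue.

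**Figure D2:**
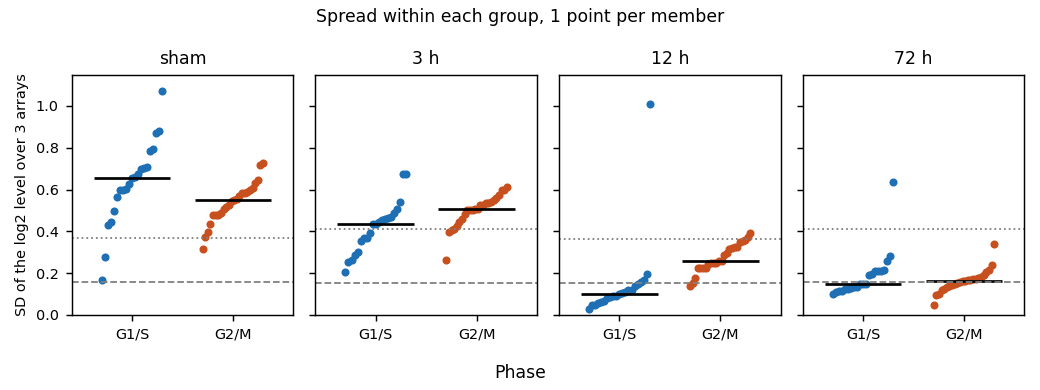
SD of the log2 level over the 3 arrays of a group, 1 point for each G1/S (blue) or G2/M (orange) member, with the median as a black bar; dashed and dotted lines are the median and the 90th percentile over 20792 genes above background on all arrays. The members lie mostly above the dotted line in the sham and 3 h groups and near the dashed line at 72 h.

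Values that move with these arrays were looked up in marker lists. The mean of 6 neutrophil markers, relative to sham, was -0.80, 0.08 and 0.72 on sham replicates 1 to 3, in the same order as the members. The mean over 10 crypt genes differed little (-0.05, 0.04 and 0.02), and that of 7 genes of all epithelial cells was -0.09, 0.05 and 0.04. The 4 B cell markers (0.26, -0.53 and 0.27) and 6 germinal centre B cell markers (0.36, -0.52 and 0.16) took another order. On 3 h replicate 1, the array high in the members, the B cell markers stood at -3.91, against -1.20 and 0.14 on replicates 2 and 3. The neutrophil markers did not rank with the members there, with their lowest mean on 3 h replicate 1 (5.05, against 5.61 and 5.32). The crypt genes (0.37, 0.27 and 0.33) and the genes of all epithelial cells (0.43, 0.28 and 0.31) were highest on replicate 1, with the members. The part of these cells in the spread of the members was not tested.

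Against this spread, few members were called as changed. A gene was called where the fold change exceeded 2 and the adjusted p was below 0.05 (limma, Benjamini-Hochberg over all probes). At 3 h, 1 of 45 members was called against sham, where 7.37% of all genes were. At 12 h, 1 of 45 was called, where 9.06% of all genes were. At 72 h, 0 of 45 were called, where 8.85% of all genes were. Left out in turn, sham replicates 1 and 3 moved the 12 h calls most: without replicate 1 there were 3 (7.66% of all genes), all lower (Ccnb1, Ccnb2 and Cdc25c), and without replicate 3 there were 4 (9.88%), all higher (Ccne1, Cdc6, Kif23 and Rrm2). Between times, 0 of 45 were called from 3 h to 12 h (3.46% of all genes) and 0 of 45 from 12 h to 72 h (7.52% of all genes).

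The counts at an unadjusted p below 0.05 lay below the share of all genes, though near it at 12 h against sham. Such counts also depend on the width of the intervals, given below, which was greater for the members. Against sham, 6 of 45 passed at 3 h (34.0% of all genes), 12 of 45 at 12 h (32.4%) and 2 of 45 at 72 h (32.8%). Between times, 5 of 45 passed from 3 h to 12 h (24.1% of all genes) and 7 of 45 from 12 h to 72 h (32.3%). Dunnett's test, run for the comparisons with sham, called 1 of 45 members at 3 h (5.16% of all genes), 0 of 45 at 12 h (6.87%) and 0 of 45 at 72 h (5.9%). The median 95% interval reached 0.67 on the log2 scale to either side of a member's difference, against 0.35 for the genes above background on all arrays. The absence of a call does not show that the levels were alike.

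**Figure D3:**
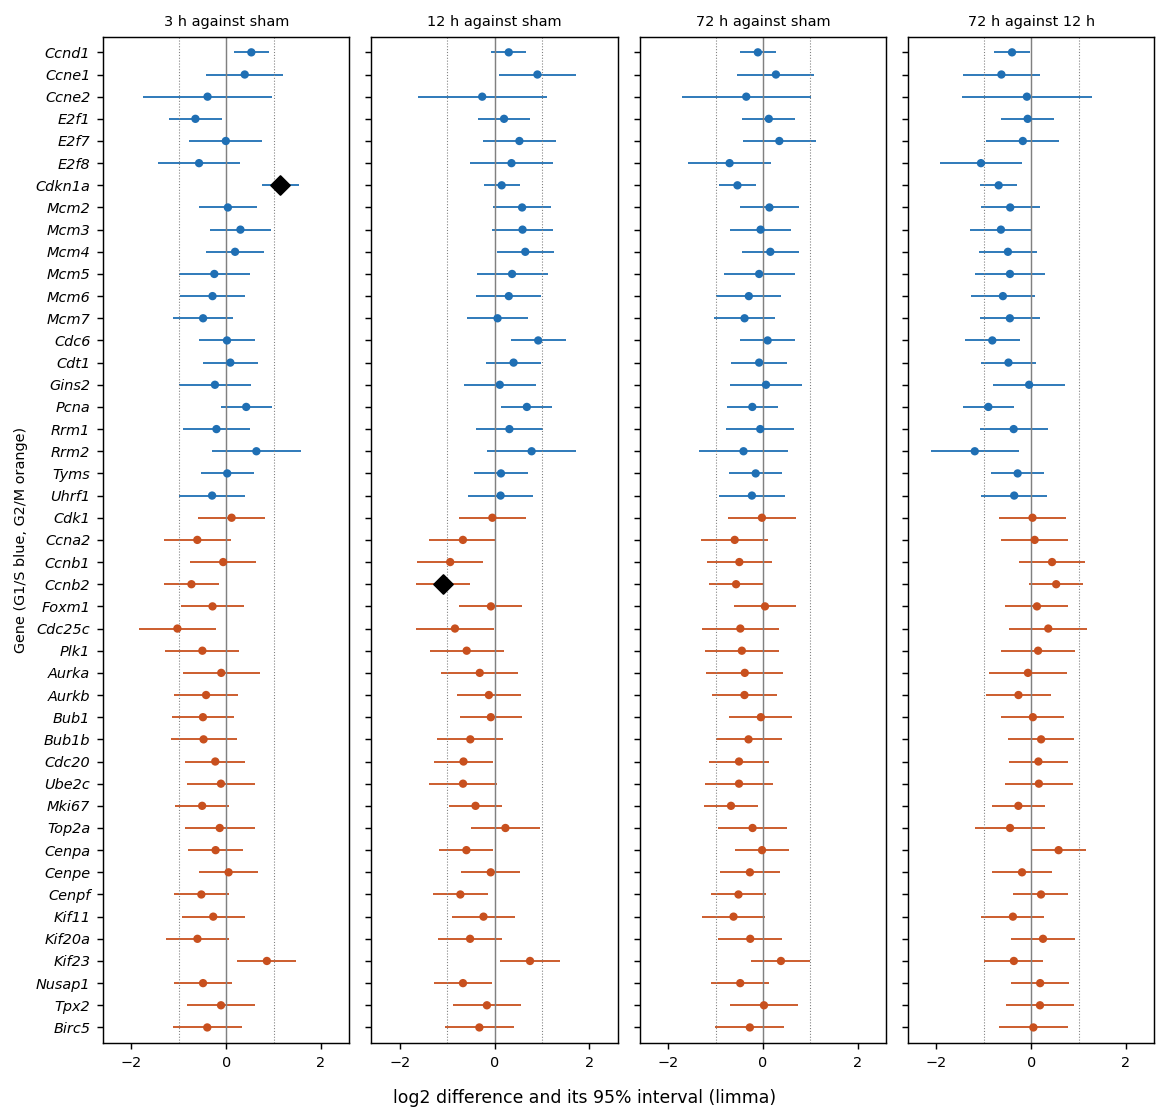
Log2 difference of each member (rows) with its 95% interval from limma in 4 comparisons, G1/S in blue and G2/M in orange; dotted lines mark a 2-fold change and black diamonds the called members. The diamonds are Cdkn1a at 3 h and Ccnb2 at 12 h, and in the last panel all 21 G1/S points lie left of 0, Ccne2, which was not above background, included.

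Among the G1/S regulators, the called gene was an inhibitor. Cdkn1a encodes p21, which binds cyclin-dependent kinases and holds cells in G1. Its level was 3.60, 3.79 and 3.45 in sham, 4.49, 4.77 and 5.02 at 3 h, 3.86, 3.80 and 3.64 at 12 h, then 2.78, 3.21 and 3.25 at 72 h. All 3 h arrays lay above every other array, the 12 h arrays overlapped sham, and the 72 h arrays lay below every other array.

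Cdkn1a rose at 3 h by 1.14 on the log2 scale (SE 0.17, adjusted p = 0.00172), a 2.21-fold increase. The call was lost, with the direction kept, under quantile normalization (0.90, adjusted p = 0.00514) and with the probes of the gene averaged (adjusted p = 0.0412). The methods' t-test, paired here by replicate number, called 0 genes at 3 h after adjustment. The study gives that test for comparing a pair of experimental groups and names no test for the arrays. The sham arrays of Cdkn1a were tight (SD 0.17) and did not follow the order of the other members. From 3 h to 12 h the difference was -0.99 (SE 0.17, adjusted p = 0.00865), just short of 2-fold and so not called. From 12 h to 72 h it was -0.69 (adjusted p = 0.0217), and at 72 h against sham -0.54 (adjusted p = 0.053), both under 2-fold. With the slide as a block the step from 12 h to 72 h was -0.565. With the probes of the gene averaged, the difference from 12 h to 72 h turned to 0.46 (adjusted p = 0.186). That average took in a dim probe, not above background at 12 h, whose mean level went from -6.405 at 12 h to -4.262 at 72 h. The probes above background on all 12 arrays did not differ in sign for this step.

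The other probes of Cdkn1a gave different values. The second probe, above background on all 12 arrays, was higher by 0.77 at 3 h (adjusted p = 0.0109) and by 0.01 at 72 h, so the lower level at 72 h was seen with 1 of these probes. Another, dimmer probe was above background on 2 arrays, both at 72 h, where its level was at least 1.69-fold higher than sham (adjusted p = 0.0219); the bound sets the mean of the bright group against the lowest signal well above background on the dim arrays. The 60-base probe that stood for the gene lies at chr17:29237377-29237436 in the mm9 coordinates of the array files, and where it falls in the transcript was not analysed here.

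Ccnd1, cyclin D1, which starts RB phosphorylation in response to growth signals, was 2.15, 2.50 and 2.69 in sham and 3.21, 2.80 and 2.93 at 3 h. It was 2.56, 2.88 and 2.80 at 12 h and 2.36, 2.21 and 2.47 at 72 h. The 3 h arrays all lay above the sham arrays, by a mean of 0.53 (SE 0.17), but the adjusted p was 0.0533 and the fold under 2. The 72 h arrays overlapped sham and lay below all 12 h arrays.

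Ccne1, cyclin E1, which drives entry into S phase, had one of the widest spreads in sham, with levels of 0.264, 1.194 and 2.001. It was 2.04, 1.35 and 1.24 at 3 h, 1.96, 2.06 and 2.15 at 12 h, then 1.50, 1.28 and 1.50 at 72 h. The 12 h arrays were close together, near the highest sham array. The difference from sham at 12 h was 0.90 (SE 0.37, adjusted p = 0.114).

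The E2F genes showed no call. E2f1, an activator of the G1/S wave, differed from sham by -0.65 at 3 h (adjusted p = 0.101) and by 0.20 at 12 h. The repressors E2f7 and E2f8, which close that wave, differed by 0.52 and 0.36 at 12 h, and by -0.01 and -0.57 at 3 h. All 12 h arrays of E2f1 and of E2f8 lay above all 3 h arrays, with adjusted p of 0.0653 and 0.185. Ccne2 gave no usable level at any time.

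With all sham arrays in, the 14 replication genes shared a sign at 12 h, and none passed the threshold. They encode the MCM helicase (Mcm2 to Mcm7), its loaders Cdc6 and Cdt1, the GINS subunit Gins2, the sliding clamp Pcna, the nucleotide enzymes Rrm1, Rrm2 and Tyms, and Uhrf1, which brings DNA methylation to new strands. At 12 h the difference from sham was positive for 14 of 14, from 0.06 for Mcm7 to 0.92 for Cdc6, with a median of 0.39, and 0 of 14 were called. Over all 21 G1/S members the median was 0.36, or 0.08 without sham replicate 1 and 0.68 without sham replicate 3. Without sham replicate 1, 10 of the 45 members changed sign at 12 h, Mcm5, Mcm6 and Mcm7 among them. The shared sign of the replication genes thus rested on that array. The probes above background of Mcm7 and of Tyms also differed in sign at 12 h against sham. Of the 14 replication genes, 8 lay above sham at 3 h (median 0.02) and 4 at 72 h (median -0.08), with 0 calls.

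Mcm2 was 0.44, 1.06 and 1.65 in sham and 1.50, 0.85 and 0.92 at 3 h. It was 1.61, 1.69 and 1.60 at 12 h and 1.22, 0.97 and 1.39 at 72 h. The 12 h arrays lay near the highest sham array and above all 3 h and all 72 h arrays. The 12 h difference from sham was 0.58 (95% interval -0.04 to 1.20, adjusted p = 0.183).

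Pcna was 3.63, 4.15 and 4.76 in sham, 4.89, 4.41 and 4.52 at 3 h, 4.82, 4.94 and 4.83 at 12 h, then 3.90, 3.90 and 4.09 at 72 h. Every 12 h array lay above every sham array, by a mean of 0.68 (SE 0.24, adjusted p = 0.0753). From 12 h to 72 h Pcna differed by -0.90 (SE 0.24, adjusted p = 0.0288), again under 2-fold. This step mostly crosses slides, and with the slide as a block it was -0.87. The adjusted p was 0.0527 with quantile normalization. It was 0.0554 to 0.0854 when any of the 12 h arrays, or 72 h replicate 1 or 2, was left out.

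Cdc6 and Rrm2 were singled out after their values were seen. Cdc6 was -1.29, -1.03 and -0.33 in sham, -0.38, -0.95 and -1.27 at 3 h, 0.10, -0.02 and 0.03 at 12 h, then -0.71, -0.93 and -0.71 at 72 h. Its 12 h arrays lay above all other arrays, by 0.92 over sham (SE 0.26, adjusted p = 0.0319), which is under 2-fold. A second, dimmer probe of Cdc6, above background on all arrays, passed both thresholds in 3 comparisons, with differences of 1.33 at 12 h against sham, 1.19 from 3 h to 12 h and -1.15 from 12 h to 72 h (adjusted p = 0.0108, 0.037 and 0.0254). Rrm2, the regulated subunit of ribonucleotide reductase, was 4.40, 4.49 and 4.28 at 12 h and 3.34, 2.95 and 3.30 at 72 h. That step was -1.19 (SE 0.42) with an adjusted p of 0.0796; the sham arrays of Rrm2 ran from 2.78 to 4.53.

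The promoters of the members were searched for the motifs of each wave. E2F factors bind the E2F site, and MuvB binds the cell cycle genes homology region (CHR), often near CCAAT boxes, to which NF-Y binds. RefSeq windows of 300 bases (250 before to 50 after the start, GRCm38.p6) were at hand for 35 of the 45 members, 17 of G1/S and 18 of G2/M. Each was searched on both strands, and the 3 members with 2 windows counted once, if either held the motif. An E2F site (TTTCCCGC, TTTGGCGC, TTTGCCGC or TTTCGCGC) was in the windows of 8 of 17 G1/S members and 1 of 18 G2/M members (Cdk1), against 2.3% of 32851 windows. TTTGAA, the common form of the CHR, was in 2 of 17 and 13 of 18, against 17.9%, and TTTAAA, its variant, in 4 of 17 and 7 of 18, against 13.2%. CCAAT was in 11 of 17 and 16 of 18, against 37.4%. A p53 decamer was in 5 of 35, Cdkn1a among them, against 8.4%. A match is a string of letters, and binding was not measured.

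The 200 bases before the start are shown for 3 replication genes, with E2F sites in capitals. They are Cdc6 (chr11:98907951-98908150, plus strand), Mcm6 (chr1:128359706-128359905, minus strand) and Mcm5 (chr8:75109309-75109508, plus strand). With all arrays in, their 12 h differences from sham were positive, and none was called. Those of Mcm6 and Mcm5 turned negative without sham replicate 1. In Mcm6 and Mcm5 a pair of sites on opposite strands overlaps in 1 capital run of 12 letters.
Cdc6: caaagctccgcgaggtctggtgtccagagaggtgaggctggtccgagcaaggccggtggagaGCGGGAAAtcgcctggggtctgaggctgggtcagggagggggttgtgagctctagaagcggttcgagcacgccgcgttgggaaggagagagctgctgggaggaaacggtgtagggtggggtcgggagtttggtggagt
Mcm6: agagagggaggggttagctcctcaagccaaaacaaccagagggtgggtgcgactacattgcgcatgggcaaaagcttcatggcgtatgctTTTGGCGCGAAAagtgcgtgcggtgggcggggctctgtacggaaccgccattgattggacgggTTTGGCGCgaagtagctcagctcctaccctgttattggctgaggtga
Mcm5: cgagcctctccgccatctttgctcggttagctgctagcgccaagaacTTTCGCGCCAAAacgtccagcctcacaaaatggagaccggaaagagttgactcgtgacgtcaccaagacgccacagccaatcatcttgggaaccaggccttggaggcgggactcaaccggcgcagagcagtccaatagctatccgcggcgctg

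With all sham arrays in, the 13 G2/M control genes had the opposite sign at 12 h. Cdk1 with cyclins A2, B1 and B2 triggers mitosis, Cdc25c removes its inhibitory phosphates, Foxm1 activates the genes of the wave, Plk1, Aurka and Aurkb are mitotic kinases, Bub1 and Bub1b hold the spindle checkpoint, and Cdc20 and Ube2c end mitosis with the anaphase-promoting complex. At 12 h, 13 of 13 lay below sham, from -0.05 for Cdk1 to -1.09 for Ccnb2, with a median of -0.59 and 1 call. Over all 24 G2/M members the median was -0.46, or -0.74 without sham replicate 1 and -0.23 without sham replicate 3. Without sham replicate 3, 9 of the 45 members changed sign at 12 h, Cdk1, Foxm1, Bub1, Aurka and Aurkb among them. At 3 h and 72 h, 12 of 13 lay below sham, with medians of -0.43 and -0.44 and 0 calls. All sham arrays lay on slide 1 and all 72 h arrays on slide 2, so this comparison crosses slides. With the slide as a block, which rests on the 12 h arrays alone, the 72 h median over all 24 G2/M members was -0.09, against -0.39 without it, and that over the G1/S members 0.01, against -0.08, and 9 of the 45 members changed sign. Leaving out 1 array at a time, the G2/M median ran from -0.63 to -0.07 at 3 h and from -0.65 to -0.11 at 72 h.

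Ccnb2, cyclin B2, was 3.45, 4.07 and 4.19 in sham, 3.66, 2.88 and 2.97 at 3 h, 2.92, 3.07 and 2.45 at 12 h, then 3.28, 3.28 and 3.46 at 72 h. All 12 h arrays lay below all sham and all 72 h arrays. Ccnb2 fell at 12 h by 1.09 on the log2 scale (SE 0.26, adjusted p = 0.0135). With the slide as a block the difference was -0.91 (adjusted p = 0.0451), within slide 1 it was -0.91 (adjusted p = 0.0841), and in both cases the call was lost. It was also lost without sham replicate 2 (-1.01), sham replicate 3 (-0.95) or 12 h replicate 3 (-0.91). The gene has 1 probe, at mm9 chr9:70255671-70255730.

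Ccnb1, cyclin B1, was 1.72, 2.30 and 2.75 in sham, 2.71, 1.71 and 2.16 at 3 h, 1.18, 1.75 and 1.04 at 12 h, then 1.86, 1.56 and 1.87 at 72 h. The 12 h replicates 1 and 3 lay below every other array, and 12 h replicate 2 overlapped the lowest sham array. The difference from sham was -0.94 at 12 h (SE 0.31, adjusted p = 0.0584), and the other 3 probes gave -0.67, -0.65 and -0.84. Without 12 h replicate 2, or without sham replicate 1, Ccnb1 passed the threshold.

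Cdk1, the mitotic kinase itself, was -0.24, 0.43 and 0.93 in sham, 1.01, 0.01 and 0.43 at 3 h, 0.33, 0.65 and -0.00 at 12 h, then 0.49, 0.19 and 0.37 at 72 h. The groups overlapped throughout, with differences from sham of 0.11, -0.05 and -0.02 and intervals reaching 0.71 to either side.

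The stretch of 200 bases before the start is shown for the cyclin B genes and Cdc20, whose 12 h difference was negative, with CCAAT and the CHR letters (TTTGAA, or TTTAAA in Ccnb1) in capitals. They are Ccnb2 (chr9:70421555-70421754), Cdc20 (chr4:118437344-118437543) and Ccnb1 (chr13:100786487-100786686), all on the minus strand. Ccnb2 holds 3 CCAAT boxes in direct repeat. Its TTTGAA shown lies 167 bases before the start, and another lies past the start.
Ccnb2: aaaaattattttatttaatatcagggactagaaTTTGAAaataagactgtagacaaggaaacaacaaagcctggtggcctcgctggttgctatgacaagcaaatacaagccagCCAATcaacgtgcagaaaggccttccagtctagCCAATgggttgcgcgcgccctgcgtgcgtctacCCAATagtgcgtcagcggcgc
Cdc20: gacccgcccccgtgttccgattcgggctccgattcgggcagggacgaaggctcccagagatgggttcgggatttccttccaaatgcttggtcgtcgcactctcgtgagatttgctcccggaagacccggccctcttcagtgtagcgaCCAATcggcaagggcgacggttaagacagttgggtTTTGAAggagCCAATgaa
Ccnb1: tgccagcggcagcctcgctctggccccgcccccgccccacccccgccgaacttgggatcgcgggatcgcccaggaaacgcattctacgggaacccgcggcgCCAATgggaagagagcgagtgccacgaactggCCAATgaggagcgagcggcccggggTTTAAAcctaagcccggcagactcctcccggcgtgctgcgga

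Cdc25c, named after its values were seen, was -0.38, 0.62 and 1.02 in sham and 0.02, -0.96 and -0.89 at 3 h. Its difference of -1.03 at 3 h (SE 0.37, adjusted p = 0.0808) passed the threshold without sham replicate 1 or without 3 h replicate 1. Of the other control genes at 12 h, Cdc20 (-0.66), Ube2c (-0.67), Ccna2 (-0.67) and Plk1 (-0.59) lay farthest below sham. Foxm1 (-0.08), Bub1 (-0.08) and Aurkb (-0.12) lay nearest to it, and none of these 7 was called.

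The 11 chromosome and spindle genes had a median of -0.32 at 12 h, with 9 of 11 below sham and 0 calls, -0.28 at 3 h and -0.27 at 72 h. Mki67 encodes Ki-67, which coats mitotic chromosomes and is the common histological marker of cycling cells. Its level was 3.81, 4.38 and 4.76 in sham, 4.24, 3.43 and 3.75 at 3 h, 3.80, 4.09 and 3.85 at 12 h, then 3.64, 3.50 and 3.79 at 72 h. All 72 h arrays lay below all sham arrays, the nearest pair by 0.02, and the difference was -0.67 (SE 0.25, adjusted p = 0.0916).

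Cenpf, a kinetochore protein, was lower than sham without overlap at 12 h (-0.72, adjusted p = 0.0792) and 72 h (-0.52, adjusted p = 0.205). Cenpa, the histone of centromeres, and Nusap1, which bundles spindle microtubules, differed by -0.59 and -0.67 at 12 h. Top2a, the topoisomerase that untangles sister chromatids and is made from S phase on, differed by 0.23 at 12 h, the only member of this role besides Kif23 above sham.

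Kif23, a motor of the midbody, lay above sham at all 3 times, with differences of 0.86, 0.75 and 0.38 and adjusted p of 0.0594, 0.089 and 0.389. It was named after its values were seen. Its 3 h and 12 h arrays did not overlap sham (-1.1, -0.37 and 0.09). The probes of the gene disagreed: at 3 h the 3 probes above background on all arrays gave 0.86, 0.63 and -0.14.

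**Figure D4:**
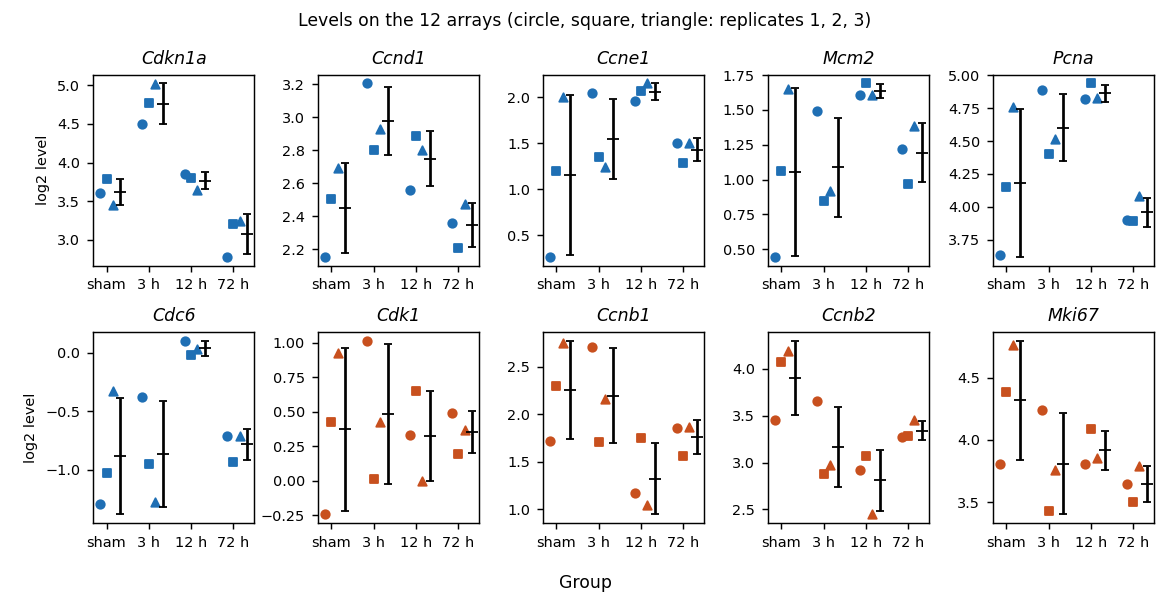
Log2 level on each array (symbols for replicates 1, 2 and 3) with the group mean and SD (n = 3, black), for 6 G1/S genes (blue) and 4 G2/M genes (orange); each panel has its own axis. Cdkn1a stands highest at 3 h, Cdc6 at 12 h above all other arrays, and Ccnb2 lowest at 12 h.

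Because the members vary together between arrays of a group, the phases were also set against each other within each array, where a shared shift and the scale of the array cancel. The mean of the 21 G1/S members minus that of the 24 G2/M members, each gene relative to its sham mean, was -0.07, -0.01 and 0.09 on the sham arrays. It was 0.22, 0.55 and 0.20 at 3 h, 0.84, 0.53 and 0.97 at 12 h, then 0.17, 0.21 and 0.22 at 72 h. Over the sham arrays the SD was 0.62 for the G1/S mean, 0.53 for the G2/M mean and 0.08 for their difference.

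Every array taken after cauterization had a higher value than every sham array, though for 72 h this sets slide 2 against slide 1, where the slide as a block brought the medians of the phases closer (0.01 and -0.09). Every 12 h array had a higher value than every 72 h array. The 12 h and 3 h groups overlapped, since 12 h replicate 2 (0.53) lay below 3 h replicate 2 (0.55). On slide 1 the 12 h arrays (0.84 and 0.53) stood above the sham arrays, and on slide 2 the 12 h array (0.97) stood above the 72 h arrays. At 12 h it came from both phases, with G1/S means of 0.32, 0.44 and 0.42 and G2/M means of -0.52, -0.09 and -0.55. Each of these G1/S means lay inside the range of the sham arrays, -0.64 to 0.58, as did each G2/M mean (-0.57 to 0.49), so neither phase alone left its sham range. This is a description of chosen lists and carries no test.

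**Figure D5:**
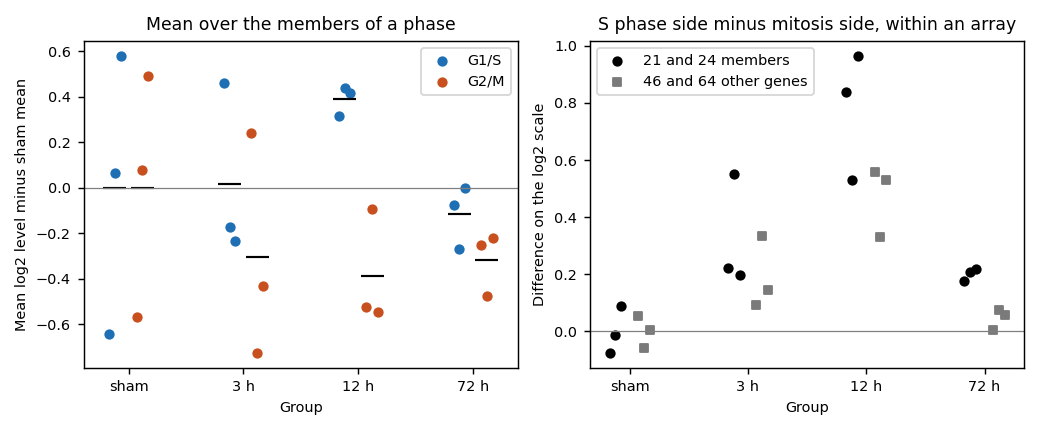
Left, mean log2 level of the 21 G1/S (blue) and 24 G2/M (orange) members on each array, relative to each gene's sham mean, with the group mean as a bar; right, the G1/S mean minus the G2/M mean within each array (black), and the same for 46 other replication and 64 other mitosis genes (grey squares). The black points lie between -0.07 and 0.09 in sham and between 0.53 and 0.97 at 12 h.

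Genes outside the members were set side by side in the same way. Over 46 other replication genes (19 of origin licensing and firing, 27 of the fork and of nucleotide supply) and 64 other mitosis genes (24 of the kinetochore and checkpoint, 40 of the spindle, chromosomes and cytokinesis), the within-array difference was 0.05, -0.06 and 0.00 in sham. It was 0.09, 0.34 and 0.15 at 3 h, 0.56, 0.33 and 0.53 at 12 h, then 0.00, 0.07 and 0.06 at 72 h. The 12 h arrays were again above the sham and 72 h arrays, by less than in the members, and overlapped the 3 h arrays. Unlike in the members, the 72 h arrays overlapped the sham arrays. These genes vary with the members between arrays and are not independent of them.

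From 3 h to 12 h, 18 of the 20 G1/S members above background were higher (14 of 14 replication genes), with a median over the 21 of 0.46 against -0.12 over all genes. The exceptions were Cdkn1a and Ccnd1, whose mean level was highest at 3 h. Of the 24 G2/M members, 15 were lower, with a median of -0.07 that changed sign when single arrays were left out (-0.31 to 0.23).

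The step from 12 h to 72 h compared the groups with the least spread. All 20 G1/S members above background were lower at 72 h, with a median over the 21, Ccne2 included, of -0.45 against -0.14 over all genes, while 17 of 24 G2/M members were higher, with a median of 0.13. The arrays of the groups did not overlap for 17 of 21 G1/S members (13 of 14 replication genes) and for 5 of 24 G2/M members, where 38.5% of all genes and 52.2% of the genes above background on all arrays did not. Over all 45 members this was 22, near that background. In the lower direction it was 24.1% of all genes, and the 17 G1/S members were all lower. None reached the threshold in the model with all 4 groups, where the variance of each gene also takes in the sham and 3 h arrays.

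With only the 12 h and 72 h arrays in the fit, E2f8 and Rrm2 were called lower, 2 of 45 where 6.31% of all genes were called. Without a fold threshold in that fit, 8 of 45 members had an adjusted p below 0.05, where 12.4% of all genes did. All 8 were lower G1/S members, where 6.41% of all genes were lower: Rrm2 (-1.19, adjusted p = 0.0127), E2f8 (-1.06, 0.0127), Pcna (-0.90, 0.0131), Cdc6 (-0.82, 0.0167), Mcm3 (-0.64, 0.0268), Ccne1 (-0.63, 0.0314), Mcm6 (-0.60, 0.0345) and Cdkn1a (-0.69, 0.0496). The sign of Cdkn1a turned with its probes averaged, which took in the dim probe. This fit without a fold threshold was chosen after the data were seen. Within slide 2, which holds 1 of the 12 h arrays and the 3 72 h arrays, the medians were -0.53 for G1/S and 0.22 for G2/M.

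Other genes of the pathway, none of them members, were also mostly uncalled. Of 16 further kinases, cyclins and inhibitors, Cdkn2b, which encodes the CDK4 inhibitor p15, fell at 3 h by 1.50 (adjusted p = 0.000112). Cdkn2a, which encodes the inhibitor p16 and ARF, rose at 72 h from below background on all sham arrays, to a level at least 7.30-fold higher (adjusted p = 0.00361), and was also called higher at 72 h than at 12 h. No gene of the 14 of the E2F and RB family, the 19 of licensing and firing or the 24 of the kinetochore was called in any of the 5 comparisons.

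Of the 27 fork and nucleotide genes, 1 was called, the helicase Hells, lower from 12 h to 72 h (-1.096, adjusted p = 0.0284). Of the 40 spindle genes, Cit, a kinase of cytokinesis, was called lower at 3 h (-1.64) and 12 h (-1.41), and Pttg1, the securin that holds sister chromatids until anaphase, lower at 12 h (-1.06). Fam64a was called lower at 3 h (-1.74) and higher at 72 h (2.69). Of 12 p53 targets other than Cdkn1a, Btg2, an antiproliferative gene, was called higher at 3 h (1.17, adjusted p = 0.00133) and 12 h (1.78), with list medians of 0.19 and 0.16.

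The mix of cells in the tissue changed over the same times, and its part in the members' values was not tested. The summed level of 6 neutrophil markers was 78.7 to 90.4 in sham, 347 to 566 at 3 h, 805 to 833 at 12 h and 340 to 615 at 72 h, as a multiple of the 75th percentile, with 4, 5 and 4 of 6 called higher in the order of time. The summed level of 6 genes of neutrophil precursors was 0.64 to 0.79 in sham, 0.87 to 1.69 at 3 h, 2.85 to 4.44 at 12 h and 1.58 to 2.11 at 72 h, with 1, 3 and 2 of 6 called higher; of these, Ngp and Ltf were above background on no sham array. The 10 crypt genes summed to 45.2 to 48.8 in sham, 60.1 to 61.0 at 3 h, 46.2 to 56.2 at 12 h and 61.2 to 73.7 at 72 h, with 3, 2 and 2 called higher and 2, 3 and 1 called lower. The 6 surface epithelium genes summed to 1079 to 1169 in sham and 277 to 401 at 72 h, where 5 of 6 were called lower.

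Stromal and macrophage markers moved most in the later groups. The 6 fibroblast genes summed to 115 to 129 in sham, 85.2 to 102 at 3 h, 80.1 to 89.1 at 12 h and 295 to 593 at 72 h, with 5 of 6 called higher from 12 h to 72 h. The 6 macrophage genes summed to 29.7 to 31.2 in sham, 21.8 to 27.8 at 3 h, 31.9 to 34.2 at 12 h and 89.2 to 92.3 at 72 h, with 4 of 6 called higher from 12 h to 72 h. The 5 smooth muscle genes summed to 325 to 361 in sham, 171 to 210 at 3 h, 108 to 174 at 12 h and 110 to 154 at 72 h, with 5 of 5 called lower at 12 h and 4 at 72 h.

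Of the 6 germinal centre B cell genes, whose cells also divide, the sums were 4.11 to 6.62 in sham, 5.48 to 10.7 at 3 h, 8.34 to 11.7 at 12 h and 7.09 to 8.80 at 72 h, with 0, 1 and 1 called higher and 1 lower at 72 h, where the median difference was -1.15. No gene of these 8 lists was below background on all 12 arrays. Of 14 genes of the circadian clock, 5 were called at 3 h (2 of them higher), 7 at 12 h (2 higher) and 5 at 72 h (2 higher). At 12 h the largest differences were in Hlf (-2.36), Dbp (-1.90) and Nr1d1 (-1.57). The hour of sampling is not given, and its part in the members' values was not tested.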

How the data were processed

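Total RNA of 12 ceca was labelled with Cy3 and hybridized to Agilent SurePrint G3 mouse arrays. The deposited intensity values are the processed signals of Agilent Feature Extraction 11.5.1.1, background-corrected by the authors' software, with mm9 probe coordinates. The deposited log2 table of the authors holds the same values scaled to the 75th percentile and centred on each probe's median. Control spots and outlier spots were left out, spots of a probe were averaged, and log2 intensity minus the array's 75th percentile over 56605 probes was fitted with limma 3.58.1 (R 4.3.3) on 4 group means. Replicates correlated at 0.985 to 0.992, and their number limits the precision. The fit was tested on simulated data, with independent noise for each probe and planted changes larger than any difference of the members. That test does not cover smaller changes, or shifts shared by many genes on an array.

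The rule gave values on every array for Mki67, Cdk1, Ccnb1, Ccnd1, Ccne1, Mcm2, Pcna, Cdkn1a and called members (up to 4 a phase of largest difference), and named up to 3 called genes of each other list. Cdc6, Rrm2, Cdc25c and Kif23 were outside it and are marked as chosen after their values were seen. The rule let any member be named, and others, such as Cenpf and Cdc20, were named by their values without that mark. Members and lists were chosen with earlier results of these data known. The methods' t-test and the replicate block matched arrays by the replicate number in the sample titles, which state no pairing. Same-numbered arrays of 72 h and sham deviated together (r = 0.101, 0.154 and 0.174), as was not so throughout in the other 4 comparisons made. Unlike-numbered arrays of 72 h and sham gave r from -0.251 to 0.149. Tables of the authors' fold changes were not used. Alternatives were other scalings, background correction, probe filters, slides, blocks, tests and leaving out each array.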

Additional observations from a re-analysis of the deposited data

Results flagged for a closer look

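Cdkn1a was the member whose arrays lay on opposite sides of the sham range at 2 times. All 3 h arrays were above the highest sham array and all 72 h arrays below the lowest, and the level at 72 h was lower than at 3 h by a difference of -1.68 on the log2 scale. The difference between 3 h and 72 h was not tested. The second probe of the gene showed the higher level at 3 h but not the lower level at 72 h.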

How the results depend on the processing

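The count of members called at 72 h against sham was 0 under every alternative run. The share of all genes called there ran from 0.0% with the methods' t-test after adjustment, where no member could be called, to 20.7% with no fold change threshold. It was 3.11% with the slide as a block. At 3 h (1 in the main setting) it was 0 with quantile normalization (Cdkn1a at 0.90), with probes of a gene averaged and with the methods' t-test after adjustment, and 2 with the percentile over probes above background or dim probes left out, where Cdc25c was added. In the order given, 6.58%, 6.53%, 0.0%, 8.1% and 10.9% of all genes were called. At 12 h (1) it was 0 with the slide as a block, within slide 1, with the methods' t-test before and after adjustment and with Dunnett's test, and 2 with probes averaged or no fold change threshold, where Cdc6 was added. The shares of all genes, in that order, were 9.56%, 9.49%, 7.67%, 0.0%, 6.87%, 8.2% and 21.2%. From 3 h to 12 h (0) it was 1 with the percentile over spots, probes averaged, no fold change threshold, or the 2 groups alone without that threshold. The percentile over spots and the last fit were chosen after seeing the data. For these 4 settings, in order, 3.46%, 2.96%, 8.97% and 3.82% of all genes were called. From 12 h to 72 h (0) it was 1 with normexp, with dim probes left out, with trend and robust, and with probes averaged, 2 with the 2 groups alone, with the methods' t-test before adjustment and with no fold change threshold, and 8 with the 2 groups alone and no fold change threshold. The shares of all genes, in that order, were 2.87%, 10.6%, 7.75%, 6.48%, 6.31%, 5.12%, 18.5% and 12.4%. The median of the G1/S members for that step was -0.33 with quantile normalization.

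Leaving out 1 array at a time gave counts of 1 to 2 at 3 h, 0 to 4 at 12 h, 0 to 0 at 72 h, 0 to 3 from 3 h to 12 h and 0 to 2 from 12 h to 72 h. The shares of all genes, in that order, were 5.84% to 7.68%, 7.66% to 9.88%, 7.39% to 8.93%, 2.37% to 3.48% and 5.7% to 8.33%. Without sham replicate 3 the 12 h count was 4, all higher (Ccne1, Cdc6, Kif23 and Rrm2), and without sham replicate 1 it was 3, all lower (Ccnb1, Ccnb2 and Cdc25c); the 3 h count was 2 in both cases. Without 3 h replicate 1, Cdc25c at 3 h, and Cdc6, E2f1 and Cdkn1a from 3 h to 12 h, were called. The G1/S median at 12 h ranged from 0.08 to 0.68 and the G2/M median from -0.74 to -0.23, with no change of sign; at 3 h and 72 h the G1/S median changed sign (-0.27 to 0.29 and -0.40 to 0.20), and the G2/M median did not (-0.63 to -0.07 and -0.65 to -0.11). The normexp counts over all genes were lower (838, 1327, 1258, 573 and 1065 against 2732, 3360, 3282, 1282 and 2788). With the replicate block the counts of members were 1, 1, 0, 0 and 0 (7.05%, 8.76%, 8.52%, 3.01% and 7.05% of all genes), and no call changed. The causes were not tested.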
